A study of Homo sapiens with 12 samples.

Results

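The miR-424, miR-503, miR-542 and miR-450 cluster is a run of microRNA hairpins on the long arm of chromosome X. It was described here through 6 mature strands, chosen by name: hsa-miR-424-5p, hsa-miR-424-3p, hsa-miR-503-5p, hsa-miR-542-3p, hsa-miR-450a-5p and hsa-miR-450b-5p, written below without the species prefix. All 6 were present in both tables of the study, among 952 microRNAs that were in either table. Small RNA had been sequenced from K562, a human erythroleukaemia cell line, in 12 libraries, 3 for each of 4 groups that the depositors describe as biological triplicates. The group sgNT carried a non-targeting guide RNA and the group sgCYRANO a guide against CYRANO, a long non-coding RNA. The group WT was wild-type K562 with no guide, and ZSWIM8 KO had the genotype ZSWIM8-/- with no guide listed. The labels used here do not say how the guides were delivered or whether the knockout line is a single clone, and a clone cannot be told apart from the genotype in this design.

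MicroRNAs are cut from hairpin transcripts as short duplexes, of which 1 strand is usually kept by Argonaute and guides it to partly complementary messages, mainly through bases 2 to 8, the seed. A target with extensive pairing can instead cause loss of the microRNA. In this target-directed decay, ZSWIM8 acts as the substrate receptor of a ubiquitin ligase that marks the Argonaute for destruction, and CYRANO is the known trigger for miR-7. The strands miR-424-5p and miR-503-5p belong to the wider miR-15/16 group, which restrains the cell cycle by repressing cyclins and CDC25A, and miR-424 is known to promote monocyte differentiation. The comparisons ask how the strands of 1 locus respond when a single decay trigger is disrupted, and when the ligase is lost.

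Mature sequences in RefSeq (GRCh38.p14) were matched by name for 5 of the 6 strands. They are shown because the strands of 1 transcript differ in seed, with bases 2 to 8 in capitals, 5′ to 3′.
hsa-miR-424-5p: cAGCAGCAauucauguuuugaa
hsa-miR-424-3p: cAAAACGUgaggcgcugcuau
hsa-miR-503-5p: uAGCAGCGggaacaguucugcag
hsa-miR-450a-5p: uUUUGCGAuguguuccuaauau
hsa-miR-450b-5p: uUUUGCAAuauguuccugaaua
The longest stretch common to miR-424-5p and miR-503-5p was AGCAGC, at bases 2 to 7 of each, so these strands share the seed core but differ at base 8. The pair miR-450a-5p and miR-450b-5p was identical at 16 of 22 bases. Counted from the 5′ end of miR-450a-5p, the differences were G7A, G10A, A18G, U20A, A21U and U22A, the first of which lies in the seed. The seed of miR-424-3p, AAAACGU, was found in 0 other human microRNAs of the table.

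The hairpins lie on the - strand of chromosome X, and in the direction of transcription they run MIR424 (134546614 to 134546711), MIR503 (134546328 to 134546398), MIR542 (134541341 to 134541437), MIR450A2 (134540508 to 134540607), MIR450A1 (134540341 to 134540431) and MIR450B (134540185 to 134540262), in GRCh38.p14. A gap of 215 bases separates MIR424 from MIR503, and 4890 bases separate MIR503 from MIR542. The last 3 hairpins are 76 and 78 bases apart. In GENCODE 29 (GRCh38), MIR503 lies in an intron of the long non-coding gene MIR503HG (134543337 to 134546632), and 19 bases of MIR424 overlap its first exon. The other 4 hairpins overlap no annotated host gene there. The strand miR-450a-5p is encoded by both MIR450A1 and MIR450A2, so its level cannot be assigned to 1 hairpin.

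The tables used here hold the authors' own comparisons and no values of single libraries. Group mean levels, in counts per 1000000 microRNA reads (CPM), were recovered from the fold change and the mean abundance, and the value after each ± is the standard error that gives the deposited p-value. The direction of the fold changes is not in the headers, and they were read with sgCYRANO and ZSWIM8 KO as numerators. With this reading miR-7-5p, for which CYRANO is the known decay trigger, was higher in sgCYRANO (2.52 ± 0.09) and in ZSWIM8 KO (2.35 ± 0.14). Under the opposite reading each pair of means would swap, and miR-7-5p would be lower where its trigger or the ligase is disrupted. The reads behind a group came to 5490000 for sgNT, 5290000 for sgCYRANO, 3810000 for WT and 7060000 for ZSWIM8 KO, as read from the smallest steps in the means. Lineage marker microRNAs are given as a description and do not by themselves identify the line. All 6 erythroid markers were measured and summed to between 13611 and 16624 CPM over the groups, mostly miR-486-5p (11701 to 14449 CPM). The 2 myeloid markers summed to between 2963 and 3556 CPM, and 6 of 7 epithelial markers to between 87.6 and 118 CPM. The lymphoid marker miR-150-5p was not in either table, and miR-155-5p was at 0.899 CPM in sgNT. The strand miR-142-3p, which is shared by all blood lineages, was between 2331 and 2778 CPM, and miR-142-5p between 832 and 947 CPM.

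The strands of the cluster were unequal in abundance, and all 6 averaged 10 CPM or more in both comparisons. In WT the mean was 616 CPM for miR-424-3p, 104 CPM for miR-450a-5p, 83.7 CPM for miR-450b-5p, 52.8 CPM for miR-503-5p, 48.0 CPM for miR-424-5p and 12.7 CPM for miR-542-3p. These levels compare strands of 21 to 23 bases, where length is known, and strand-dependent ligation in library preparation was not tested. Among the 868 microRNAs tested, miR-424-3p ranked 70 in WT and miR-542-3p ranked 282. The same order held in sgNT and in ZSWIM8 KO, and in sgCYRANO only miR-503-5p (49.3 CPM) and miR-424-5p (51.7 CPM) changed places, a gap within their errors. Summed, the 6 strands came to 948 CPM (sgNT), 906 CPM (sgCYRANO), 918 CPM (WT) and 1067 CPM (ZSWIM8 KO). The share of miR-424-3p in that sum was lowest in ZSWIM8 KO (47.8%) and highest in WT (67.1%), with sgNT (54.5%) and sgCYRANO (57.9%) between them. Without this strand the sum was 302 CPM for WT and 557 CPM for ZSWIM8 KO.

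**Figure D1:**
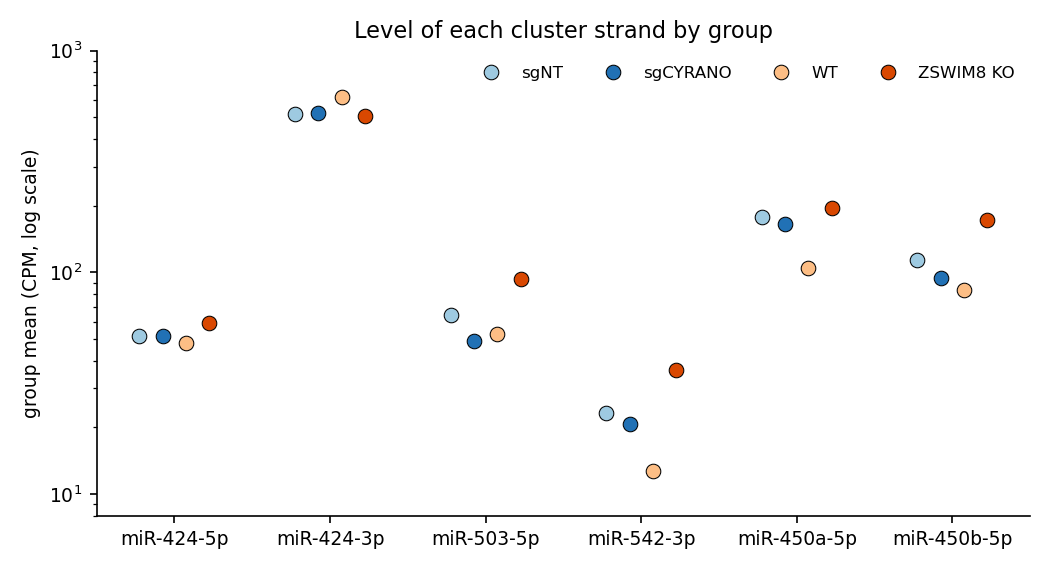
Group mean level of each cluster strand in CPM on a log axis, 1 point for each of the 4 groups of 3 libraries. The point for miR-424-3p lies highest in every group, and the WT points of miR-542-3p, miR-450a-5p and miR-450b-5p lie below those of the other 3 groups.

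The MIR424 hairpin gave mostly its 3p strand in these cells. Its sequence is shown with the 5p arm and then the 3p arm in capitals.
MIR424: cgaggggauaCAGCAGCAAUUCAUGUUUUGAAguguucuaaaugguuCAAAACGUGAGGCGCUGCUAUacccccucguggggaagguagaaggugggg
The ratio of 3p to 5p was 9.98 (sgNT), 10.2 (sgCYRANO), 12.8 (WT) and 8.59 (ZSWIM8 KO). The MIR503 hairpin leaned the other way, with 5p over 3p ratios of 38.2, 18.9, 19.0 and 33.5 in the same order of groups, though its 3p strand was at 1.68 to 2.79 CPM. For miR-450a the 5p strand exceeded the sum of miR-450a-1-3p and miR-450a-2-3p about 29-fold in sgNT and in sgCYRANO, 14.5-fold in WT and 26.2-fold in ZSWIM8 KO. The strands miR-542-5p and miR-450b-3p were not found by name among the microRNAs of either comparison.

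Disruption of CYRANO was followed by no called change at this locus. The authors' deposited table called 0 of the 6 strands at an adjusted p of 0.05 (edgeR quasi-likelihood test), where 0.119% of all 837 microRNAs were called, and 0.334% of the 299 at 10 CPM or more. At an unadjusted p under 0.05 there was 1 strand of 6, against 5.85% of all microRNAs, and it was miR-503-5p. Its mean was 64.2 CPM in sgNT and 49.3 CPM in sgCYRANO, with a log2 fold change of -0.38 ± 0.17 in the authors' deposited table (adjusted p = 0.816, edgeR).

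The other 5 strands lay nearer to no change in sgCYRANO. The miR-424 arms were nearly level: miR-424-5p had means of 51.8 and 51.7 CPM, and miR-424-3p 517 and 525 CPM. In the authors' deposited table their log2 fold changes were 0.00 ± 0.17 and 0.02 ± 0.11. The 95% interval of miR-424-3p ran from 0.879-fold to 1.17-fold, the narrowest of the 6 strands in this comparison. The strands from the far end of the cluster had log2 fold changes of -0.17 ± 0.25 (miR-542-3p), -0.11 ± 0.13 (miR-450a-5p) and -0.27 ± 0.14 (miR-450b-5p), as the authors' deposited table has them. The median over the 6 strands was -0.14, beside 0.01 over all microRNAs tested.

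Loss of ZSWIM8 was followed by higher levels of 4 of the 6 strands. The strands miR-503-5p, miR-542-3p, miR-450a-5p and miR-450b-5p rose between 1.77-fold and 2.85-fold against WT, while neither arm of miR-424 passed the test. Over all 868 microRNAs in the authors' deposited table, 9.91% were called, with 4.72% called higher and 5.18% lower. At 10 CPM or more, where all 6 strands lie, 12.5% of 304 microRNAs were called higher and 10.5% lower. The median log2 fold change of the 6 strands was 0.86, beside 0.13 for all microRNAs at 10 CPM or more. Some lineage markers were called in the same comparison. Of 6 erythroid markers, 1 fell in the authors' deposited table, miR-486-3p (-0.40 ± 0.14, adjusted p = 0.0427, edgeR). The other 5 were not called: miR-451a, miR-144-3p and miR-144-5p had positive log2 fold changes, and miR-486-5p and miR-210-3p negative ones. The median over the 6 erythroid markers was 0.19. Of 2 myeloid markers, 1 fell in the authors' deposited table, miR-223-5p (-0.38 ± 0.10, adjusted p = 0.00353, edgeR). The other, miR-223-3p, had 0.30 ± 0.12 there (adjusted p = 0.0779, edgeR). The 6 measured epithelial markers and both strands of miR-142 were not called. Summed, the erythroid markers were at 16624 CPM (WT) and 15999 CPM (ZSWIM8 KO) and the myeloid markers at 3556 and 3120 CPM, and their part in the rises was not tested.

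The largest rise was that of miR-542-3p, a strand reported to repress the apoptosis inhibitor survivin. In WT its mean was 12.7 CPM, or about 48 reads over the 3 libraries, and in ZSWIM8 KO it was 36.2 CPM, or about 255 reads. The authors' deposited table gave a log2 fold change of 1.50 ± 0.35 (adjusted p = 0.000348, edgeR), the 7th highest of the 304 microRNAs at 10 CPM or more. Its 95% interval, from 1.77-fold to 4.52-fold, was the widest among the 4 risen strands.

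The related strands of the far end of the cluster rose as well. The mean of miR-450b-5p went from 83.7 CPM (WT) to 173 CPM (ZSWIM8 KO), for which the authors' deposited table gave 1.04 ± 0.20 (adjusted p = 4.64e-06, edgeR). For miR-450a-5p the means were 104 and 195 CPM, with 0.90 ± 0.19 (adjusted p = 3.98e-05, edgeR) in the authors' deposited table. These log2 fold changes differed by -0.14 (miR-450a-5p minus miR-450b-5p), with a 95% interval from -0.67 to 0.39. These strands differ by G7A within the seed.

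On the near side, miR-503-5p rose and its hairpin neighbour did not pass. The mean of miR-503-5p was 52.8 CPM without and 93.4 CPM with the knockout, and the authors' deposited table gave 0.82 ± 0.23 (adjusted p = 0.00524, edgeR). For miR-424-5p the means were 48.0 and 59.3 CPM, with 0.31 ± 0.25 there in the authors' deposited table (adjusted p = 0.563, edgeR). The 95% interval of miR-424-5p ran from 0.881-fold to 1.73-fold, so a rise as large as the point estimate of miR-503-5p (1.77-fold) lay just outside it. The difference between these strands was -0.52 on the log2 scale, with a 95% interval from -1.18 to 0.15 that includes 0.

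The most abundant strand, miR-424-3p, had a mean of 616 CPM (WT) and of 510 CPM (ZSWIM8 KO), for which the authors' deposited table gave -0.27 ± 0.35 (adjusted p = 0.729, edgeR). The error of this strand, taken from the deposited F, was 2.33 times the running median for microRNAs of like abundance, while for the other 5 strands this ratio was between 0.958 and 0.983. The precision for miR-424-3p was therefore poorer than its read number would give, and values of the single libraries were not used here. Of 15 pairs of strands, the 95% interval of the difference in ZSWIM8 KO excluded 0 in 6. The change of miR-424-3p minus that of a risen strand ran from -1.09 (miR-503-5p) to -1.77 (miR-542-3p) on the log2 scale, and all 4 of these intervals excluded 0. The change of miR-424-5p minus that of miR-542-3p was -1.19 (interval -2.03 to -0.36), and minus that of miR-450b-5p it was -0.74 (interval -1.36 to -0.12). Among the 4 risen strands, the interval included 0 in all 6 pairs. These intervals treat the errors of strands as independent, are not adjusted over the pairs and are given as a description.

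**Figure D2:**
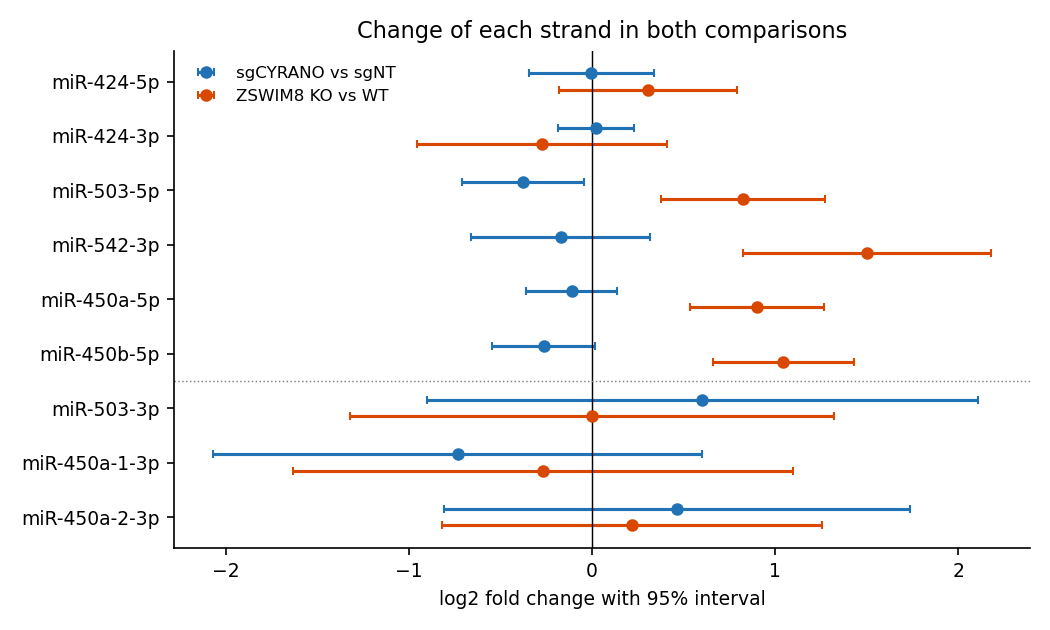
Log2 fold change of each strand with its 95% interval, for both comparisons; the 6 cluster strands are above the dotted line and 3 scarce opposite strands below it. In ZSWIM8 KO the intervals of miR-503-5p, miR-542-3p, miR-450a-5p and miR-450b-5p lie above 0, and those of the opposite strands span more than 1 log2 unit on either side of their estimate.

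The opposite strands of the same hairpins were too scarce to follow. In ZSWIM8 KO against WT the authors' deposited table gave 0.00 ± 0.67 for miR-503-3p (2.78 and 2.79 CPM), -0.27 ± 0.70 for miR-450a-1-3p (2.86 and 2.36 CPM) and 0.22 ± 0.53 for miR-450a-2-3p (4.36 and 5.08 CPM). About 11 to 36 reads stood behind each of these group means, and 0 of the 3 strands passed in either comparison. The difference between arms could be tested for 2 cluster hairpins with like-named arms. In ZSWIM8 KO the 5p strand changed by 0.58 ± 0.43 more than the 3p strand for miR-424 (adjusted p = 0.790) and by 0.82 ± 0.71 for miR-503 (adjusted p = 0.908), by a normal test adjusted over 188 hairpins, of which 3.72% were called. In sgCYRANO the corresponding values were -0.02 ± 0.20 and -0.98 ± 0.79, and neither passed. The rise of miR-503-5p was thus not shown to differ from the change of its own passenger strand.

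The rises were set against the position of each hairpin. The called strands came from MIR503, 313 bases downstream of the 5′ end of MIR424, and from the 4 hairpins between 5274 and 6449 bases downstream. The strands of the first hairpin, MIR424, were the 2 that did not pass. At the near end, which MIR424 and MIR503 share, 1 of 3 strands was called higher, beside 12.5% of the 304 microRNAs at 10 CPM or more. The change of miR-424-5p minus that of miR-503-5p had a 95% interval from -1.18 to 0.15. Against miR-450a-5p the interval ran from -1.21 to 0.01, while those against miR-542-3p and miR-450b-5p excluded 0, as given above. Whether the change depends on position was not tested.

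**Figure D3:**
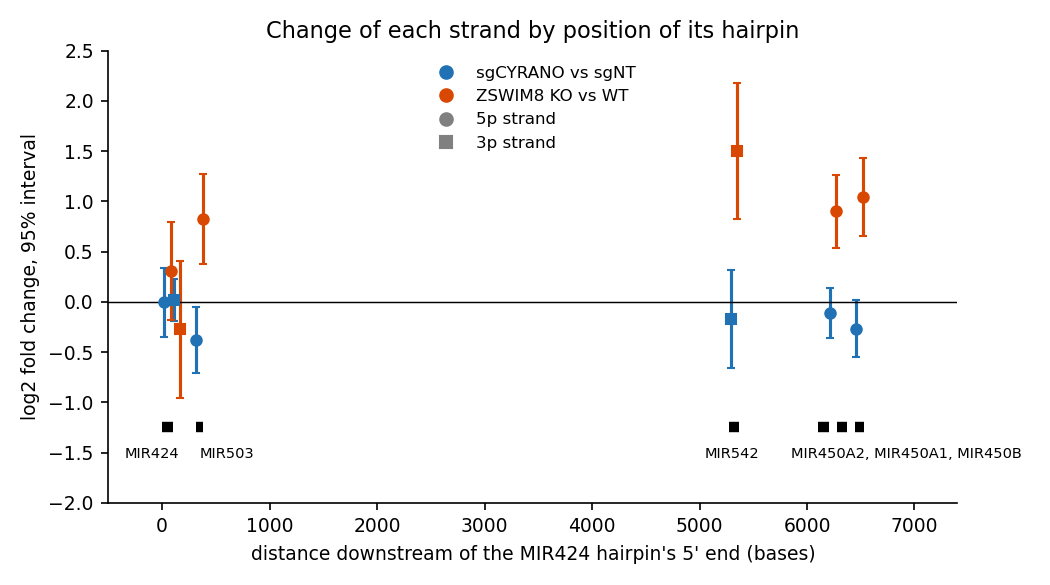
Log2 fold change with 95% interval of each strand against the distance of its hairpin from the 5′ end of MIR424 in bases, with black bars for the 6 hairpins and points moved slightly sideways for legibility. The ZSWIM8 KO points lie at 0.31 and -0.27 at MIR424, at 0.82 at MIR503 and between 0.90 and 1.50 farther downstream, while the sgCYRANO points lie between -0.38 and 0.02.

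The difference between both perturbations was tested directly, since a call in only 1 of them does not show it. The groups of the 2 comparisons share no libraries. The 4 risen strands changed more in ZSWIM8 KO than in sgCYRANO, by 1.67 ± 0.43 for miR-542-3p (adjusted p = 0.00270), 1.31 ± 0.24 for miR-450b-5p (adjusted p = 6.01e-06), 1.20 ± 0.28 for miR-503-5p (adjusted p = 0.000872) and 1.01 ± 0.23 for miR-450a-5p (adjusted p = 0.000319). This was a normal test of the difference of log2 fold changes, adjusted over the 753 microRNAs in both tables, of which 6.64% were called, and 3.72% with the higher change in ZSWIM8 KO. For the miR-424 arms the difference was 0.31 ± 0.30 (5p) and -0.29 ± 0.36 (3p), and neither passed (adjusted p = 0.766 and 0.804).

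The recovered means of both control groups, sgNT and WT, were not alike for all strands of the locus. The WT mean was 0.547 times the sgNT mean for miR-542-3p, 0.585 times for miR-450a-5p, 0.736 times for miR-450b-5p and 0.823 times for miR-503-5p, and for the arms of miR-424 it was 0.927 (5p) and 1.19 (3p) times. Over 294 microRNAs at 10 CPM or more in both tables, this ratio had a median of 1.02, and its 10th and 90th percentiles were 0.768 and 1.31. In that order from the lowest, miR-542-3p was 4th and miR-450a-5p was 6th. This rests on the direction in which the fold changes were read: under the opposite reading of both tables, the ratio of WT to sgNT would be 1.75 for miR-542-3p (270th of 294 from the lowest) and 1.18 for miR-450a-5p (169th). The tables were scaled separately, so these ratios are a description with no test.

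Against sgNT, the ZSWIM8 KO means of the 4 risen strands were therefore less raised than against WT. The ratio of ZSWIM8 KO to sgNT was 1.56 for miR-542-3p, 1.52 for miR-450b-5p, 1.46 for miR-503-5p, 1.15 for miR-424-5p, 1.09 for miR-450a-5p and 0.986 for miR-424-3p. The median of this ratio over the 294 microRNAs was 1.11, so the ratio for miR-450a-5p (195 CPM in ZSWIM8 KO and 178 CPM in sgNT) was close to that of the typical microRNA. The 90th percentile was 1.77, and 0 of the 6 strands exceeded it. The ratio of ZSWIM8 KO to sgCYRANO was 1.89 for miR-503-5p, 1.83 for miR-450b-5p and 1.75 for miR-542-3p, above the 90th percentile of that ratio (1.65), while miR-450a-5p (1.18), miR-424-5p (1.15) and miR-424-3p (0.972) were below it. The part of the control groups in the called rises was not tested.

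**Figure D4:**
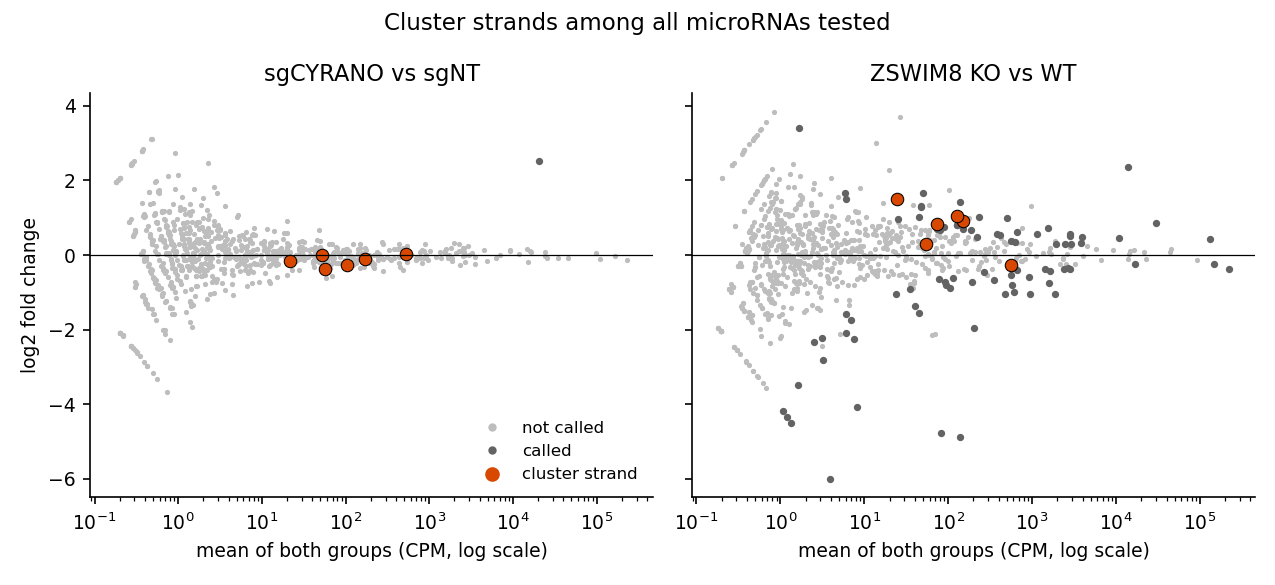
Log2 fold change against the mean of both groups in CPM (log axis) for every microRNA tested, with sgCYRANO against sgNT on the left and ZSWIM8 KO against WT on the right, with called microRNAs dark and the 6 cluster strands orange. On the left the cluster strands lie within the narrow band of uncalled microRNAs, and on the right 4 of them lie above 0.8 while those of miR-424 lie at 0.31 and -0.27.

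The 5 measured microRNAs with the same bases 2 to 8 were miR-15a-5p, miR-15b-5p, miR-16-5p, miR-195-5p and miR-497-5p, which repress cyclins and BCL2, and 0 of 5 passed in either comparison. With 9.91% of all microRNAs called in ZSWIM8 KO and 0.119% in sgCYRANO, a count of 0 of 5 is near the background. In ZSWIM8 KO their median log2 fold change was 0.09, and the authors' deposited table gave -0.03 ± 0.11 for miR-16-5p, the most abundant at 1132 CPM in WT, and 0.09 ± 0.15 for miR-15b-5p. The scarcer miR-195-5p had 0.34 ± 0.37 and miR-497-5p 0.41 ± 0.45 in the authors' deposited table. Whether miR-503-5p differs from these strands was not tested as a group. For miR-424-3p, miR-503-5p, miR-450a-5p and miR-450b-5p, 0 other microRNAs in RefSeq had the same bases 2 to 8.

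The nearby cluster that ends in miR-363-3p, a relative of the growth-promoting cluster of miR-17-5p, had 3 of 10 strands measured and 0 called in either comparison. This count is near the background, since 9.91% of all microRNAs were called in ZSWIM8 KO and 0.119% in sgCYRANO. These strands were scarce, with 0 of 3 averaging 10 CPM or more in either comparison. For WT and ZSWIM8 KO the means were 6.50 and 2.73 CPM for miR-363-3p, and 4.65 and 2.76 CPM for miR-106a-5p. Their log2 fold changes in the authors' deposited table were -1.22 ± 0.56 and -0.73 ± 0.60. Of 59 other measured microRNAs that the RefSeq table places by name on chromosome X alone, 6 rose and 4 fell in ZSWIM8 KO, with a median log2 fold change of 0.10 beside 0.08 over all 868 microRNAs. At 10 CPM or more these were 5 higher and 3 lower of 28, and the shares over all microRNAs given above (12.5% and 10.5%) are the background for them. Matched by name, those that fell were miR-221-3p, miR-222-3p, miR-222-5p and miR-223-5p. The strand miR-221-5p has no entry of its own in that table and is outside this count, and it fell too (-4.07 ± 0.63 in the authors' deposited table). Those that rose included miR-105-5p and miR-767-5p, which share a cluster at the end of the long arm, and miR-361-5p, miR-421 and miR-532-5p.

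The other clusters compared, listed with earlier results of these data known, moved the other way in ZSWIM8 KO. All 4 strands of the miR-221 and miR-222 cluster, which represses the cell cycle inhibitor p27, fell, with a log2 fold change of -4.76 ± 0.48 for miR-221-3p in the authors' deposited table. Of these strands 2 averaged 10 CPM or more over WT and ZSWIM8 KO, and miR-222-5p was at only 2.41 CPM in WT. In the cluster of miR-183-5p, miR-96-5p and miR-182-5p, known from sensory cells, 3 of 5 measured strands fell, by 0.75 to 1.05 on the log2 scale, and these were the 3 at 10 CPM or more. Of 6 measured microRNAs reported as decay substrates outside the cluster, miR-7-5p rose in ZSWIM8 KO, miR-221-3p and miR-222-3p fell, and 3 did not pass. The value of miR-7-5p was 2.35 ± 0.14 in the authors' deposited table, above the point estimate of each cluster strand. As background for these counts, 4.72% of all microRNAs were called higher in ZSWIM8 KO and 5.18% lower. At 10 CPM or more the shares were 12.5% and 10.5%.

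The microRNAs outside the cluster whose log2 fold changes in both comparisons lay nearest to the median of the 6 strands were found by Euclidean distance over the 2 fold changes, among 288 at 10 CPM or more. They were miR-342-3p, miR-135a-5p, miR-144-3p, miR-4664-3p and miR-574-3p, at distances of 0.064 to 0.168. Of these, miR-342-3p (0.80 ± 0.19) and miR-574-3p (1.03 ± 0.27) were called higher in ZSWIM8 KO in the authors' deposited table, and the other 3 did not pass. The error of miR-144-3p, an erythroid strand, was 0.60 on that scale, against 0.20 for miR-450b-5p.

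Limits of 2 further kinds bear on the called rises. They add to the low WT means beside sgNT, the unknown clone status of the knockout line and the few WT reads of miR-542-3p, all given above. Fold changes in ZSWIM8 KO had a median of 0.13 at 10 CPM or more, and relative to it the risen strands had 1.37 (miR-542-3p), 0.92 (miR-450b-5p), 0.77 (miR-450a-5p) and 0.69 (miR-503-5p) and passed, while over all microRNAs 30 were then higher and 62 lower, in place of 41 and 45. If the F statistic is referred to 4 denominator degrees of freedom, with the spread inside it left as deposited, it called 0 of the 6 strands and 3 of all 868 microRNAs.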

How the data were processed

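The members and lists were chosen with earlier results of these data known. The submitters' processing notes name STAR, featureCounts, edgeR, FastQC 0.11.2, bcl2fastq and the build hg19, without roles. The treatment of reads that match several near-identical strands is not given in the labels. Per the file headers, the authors' deposited tables, 1 for each comparison, give a log2 fold change, a mean log2 CPM, an F statistic (a score), a p-value and an adjusted p-value for each microRNA. Adjusting the deposited p-values again by Benjamini-Hochberg over all rows gave the deposited adjusted values to within 1.09e-06, so each table holds every microRNA tested.

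Group means were computed by inverting the mean abundance (prior count of 2) and the fold change (prior count of 0.125), and summed to 1000000 CPM in each group. Library totals came from the smallest steps in these means, which accounted for all group means between 0 and 1 CPM (208 to 241 in each group) within 0.0015 CPM, and the reads behind a strand are its mean times the group total. A standard error is the size of the log2 fold change divided by the normal deviate of its p. Differences between comparisons, and between like-named arms, used a normal test with Benjamini-Hochberg adjustment over all microRNAs or hairpins. The procedures were run on simulated data, in Python 3.11.15 with scipy 1.17.1. The simulated errors were drawn as normal, so this did not test whether the deposited p-values give valid normal errors. The named microRNAs were the 6 strands, their opposite strands, those sharing a seed, examples of fixed lists, and the 5 nearest in both fold changes; the called chromosome X microRNAs were named after their values were seen. No replicate spread of single strands could be computed, and nothing in the labels says whether the triplicates were separate cultures.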

Additional observations from a re-analysis of the deposited data

How the results depend on the processing

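Adjusting over microRNAs at 1 or 10 CPM or more, a threshold of 0.01, and centring on the median or a trimmed mean left the number of called strands at 0 in sgCYRANO and 4 in ZSWIM8 KO. Holm adjustment left 3 in ZSWIM8 KO, where miR-503-5p (log2 fold change 0.82) no longer passed (adjusted p = 0.261). Giving F 4 denominator degrees of freedom left 0. This changes the reference distribution only and leaves the spread inside F as deposited: miR-503-5p (0.82), miR-542-3p (1.50), miR-450a-5p (0.90) and miR-450b-5p (1.04) then had adjusted p-values of 0.336, 0.267, 0.227 and 0.202. Centring on the median turned miR-424-5p in sgCYRANO from 0.00 to 0.019, both within its error. The calls on the difference between comparisons and on the MIR424 arms kept their side of the threshold and their direction under the alternatives run: errors from F, 10 CPM or more and, for the comparisons, centring. The setting of 4 denominator degrees of freedom was not run for these tests, whose errors come from the same deposited p-values. No paired analysis was possible because the tables hold no values of single libraries, so neither a replicate block nor leaving out a replicate was run. Depth limits the 3 opposite strands, at 1.68 to 5.08 CPM, and the WT mean of miR-542-3p, which rests on about 48 reads.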
